A study of Mus musculus with 8 samples.

Results

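Tmem176a and Tmem176b are neighbouring mouse genes that encode a pair of related membrane proteins, and their transcripts were followed here in single cells of the colonic lamina propria. They are 2 of the 16889 genes of the count table, chosen by name from earlier results on the same cells, so their levels and differences are described with replicate error. Where a fit across all genes called a member at an adjusted p under 0.05, that is given as a description beside the share of all genes called, and supports nothing. The cells were CD11b+ cells that expressed CCR2 or CD64, sorted from 8 female CD98hcΔCX3CR1 mice. All of these mice carry a floxed CD98hc gene (Slc3a2, the heavy chain of an amino acid transporter) together with Cx3cr1 CreER-YFP, in which the Cx3cr1 promoter drives a Cre recombinase that tamoxifen activates and a yellow fluorescent reporter. The 4 control mice received the carrier corn oil and the 4 cKO mice received tamoxifen, in both cases for 5 days, and the colon was taken on day 7. The recombinase acts only where Cx3cr1 is or was expressed. No control mouse received tamoxifen, so an effect of the drug and an effect of the deletion cannot be told apart.

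TMEM176A and TMEM176B cross the membrane 4 times, belong to the same broad family as CD20 and the MS4A proteins, and have been described as cation channels of endosomal and lysosomal membranes. In dendritic cells they mark the immature state and have been linked to the handling of antigen for presentation on MHC class II, the molecules that display peptides to CD4+ T cells.

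The genes lie head to head. On GRCm38, GENCODE vM21 places Tmem176b on the minus strand at chr6:48833818-48841496 with 12 transcripts and Tmem176a on the plus strand at chr6:48840919-48847071 with 7, so that the outermost annotated first exons overlap while the transcripts end 13.253 kb apart. The reads of a 3′ library come from near those distant ends, outside the 578 bases that the annotations share. By RefSeq (GRCm38.p6), the nearest divergent starts are 109 bases apart, at 48841374 for Tmem176b and 48841483 for Tmem176a. Of 27025 genes in the table of starts, 4.85% had a divergent start of another gene within that distance. The stretch between both starts is shown because it is the DNA that both genes share upstream, with 20 transcribed bases on each side, read on the plus strand at chr6:48841355-48841502. Capitals mark the only match to a searched motif.

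Tmem176b to Tmem176a: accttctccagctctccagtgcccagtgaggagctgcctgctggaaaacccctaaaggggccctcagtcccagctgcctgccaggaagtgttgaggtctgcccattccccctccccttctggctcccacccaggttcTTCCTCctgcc

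In this stretch the Tmem176b start is base 20 and the Tmem176a start is base 129. The capitals are the reverse complement of GAGGAA, a form of the site bound by the ETS factor PU.1. They begin at base 138, just inside the first exon of Tmem176a. Other forms of ETS sites were not searched, so the capitals do not give the number of ETS sites in the stretch. GAGGAA on either strand was found in 28.3% of all 32851 promoter windows of 300 bases. CCAAT (37.4% of all windows), TATAAA (13.6%), the core of the interferon-stimulated response element (3.44%) and AGGTCA (16.3%), also searched on both strands, are not in any of the 5 windows of the pair. The stretch holds 62.8% G or C, against a median of 52.7% over all promoter windows, and no CG dinucleotide.

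Of 5947 barcodes, 3213 passed the cell filters, 1863 from control and 1350 from cKO mice, with between 589135 and 3762314 unique molecular identifiers (UMIs, each counting 1 captured transcript) per control mouse and between 497531 and 2486236 per cKO mouse. Control mouse 3 and cKO mouse 5 gave 85 and 83 cells and enter few of the values by cluster. Doublet calls took 0.805% of control and 4.30% of cKO cells. Barcodes found in more than 1 well numbered 25, of which 8 were among kept barcodes. Slc3a2 was at 358, 264, 233 and 493 CPM (UMI counts scaled to a common total per sum) in control mice and at 291, 357, 323 and 309 CPM in cKO mice, with a log2 fold change of 0.02 ± 0.21 (SE), so its summed level in a 3′ count did not separate the labels. Ward clustering, run without the pair and the MHC class II genes among 51 genes left out, gave 9 clusters. They comprise stromal-like (cluster 7), macrophage-like (5), lymphoid-like (1), monocyte-like (8) and dendritic-like cells (9), and 4 clusters without a name, led by Ccl5 and Spon1 (2), Fn1 and Cebpb (3), Il1a and Acod1 (4) and Ccl8 and Pf4 (6). Cluster 6 has low depth and only 2 macrophage markers, Fcrls and Pf4, among its leading genes, but its 11 macrophage markers summed to 23958 CPM in control mice, against 23734 CPM in cluster 5. The labels call the cells monocytes and macrophages, which clusters 1, 7 and 9 are not by their markers. The dendritic-like cells were split into a part led by Cd209a, Mgl2 and Clec10a (type 2 dendritic cell-like) and a part led by Xcr1 and Irf8, 2 markers of type 1 dendritic cells, which is called the Xcr1-led part. Cluster 4 held 363 cKO and 30 control cells and cluster 5 held 39 cKO and 315 control cells. This split by condition bears on comparisons within them. Within clusters, Slc3a2 had log2 fold changes of -0.68 ± 0.24 (SE) in cluster 2 and -0.64 ± 0.28 in cluster 8. It was at -0.51 ± 0.28 in cluster 9, -0.14 ± 0.38 in cluster 3 and 0.10 ± 0.53 in cluster 6. Cluster 1 was at 0.42 ± 0.28, and no fitted cluster called it at an adjusted p under 0.05.

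Both genes were widely expressed, with a UMI of Tmem176a in 58.1% and of Tmem176b in 65.7% of kept cells, from 9224 and 12593 UMIs in all. In control mice the level fell over more than an order of magnitude from stromal-like to Xcr1-led cells. Stromal-like cells, led by the matrix genes Dcn and Col3a1, stood highest. In control mice 1 to 4, with 31, 18, 6 and 13 such cells, they held 2769, 2092, 1467 and 3510 CPM of Tmem176a and 3156, 2517, 1818 and 4380 CPM of Tmem176b. Macrophage-like cells of cluster 5, with the complement genes C1qa and C1qc among their leading genes, followed at 1288 ± 16 CPM of Tmem176a and 1664 ± 81 CPM of Tmem176b (SD, n = 3 control mice with at least 20 cells). Cluster 6, whose cells had a median of only 1134 UMIs, was at 1189 ± 75 and 1692 ± 308 CPM, and lymphoid-like cells were at 1051 ± 50 and 1151 ± 98 CPM (n = 3 each). Lymphoid-like cells were thus the lowest of these 3 by mean.

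**Figure D1:**
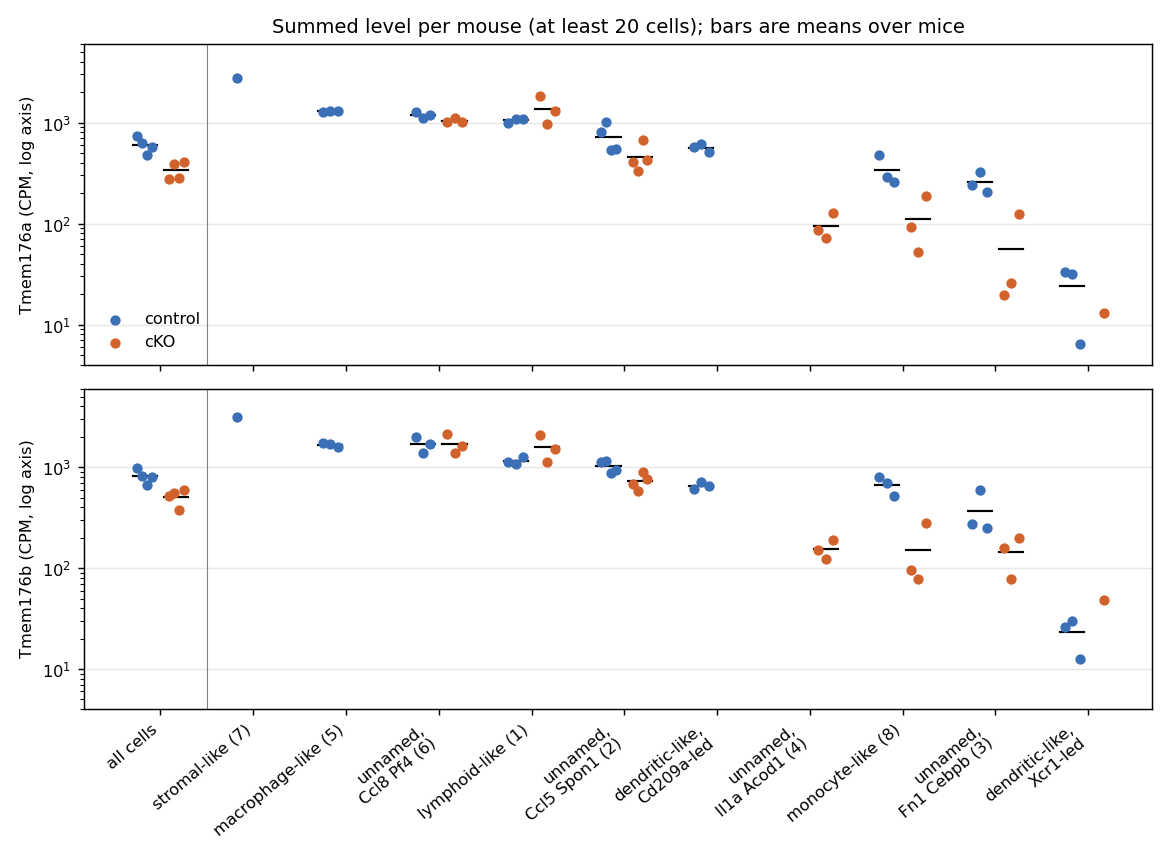
Tmem176a (top) and Tmem176b (bottom) in CPM on a log axis, summed per mouse over all cells and per cluster, for mice with at least 20 cells in the cluster. Each point is 1 mouse, and bars are means over mice. Macrophage-like cells of control mice sit between 1270 and 1302 CPM of Tmem176a and the Xcr1-led dendritic-like cells below 40 CPM of the same gene, and orange cKO points lie below blue control points over all cells and in monocyte-like cells.

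Below them came cluster 2, at 724 ± 232 CPM of Tmem176a and 1022 ± 138 CPM of Tmem176b (n = 4), and the type 2 dendritic cell-like part at 565 ± 51 and 655 ± 55 CPM (n = 3). Monocyte-like cells, led by Chil3 and F13a1, held 342 ± 119 and 665 ± 140 CPM, and cluster 3 held 257 ± 63 and 371 ± 189 CPM (n = 3 each). The Xcr1-led part was last, at 24 ± 15 and 23 ± 9.2 CPM. Taking neighbours in this order within the same control mouse, on log2(CPM + 1), Tmem176b did not differ beyond the spread between clusters 6 and 5 (0.01 ± 0.27 SD, n = 3), between clusters 1 and 2 (0.10 ± 0.28, higher in 2 of 3 mice) or between monocyte-like and type 2 dendritic cell-like cells (0.00 ± 0.37, higher in 1 of 3). Tmem176b was higher in macrophage-like than in lymphoid-like cells in 3 of 3 mice (0.53 ± 0.19). The step into the Xcr1-led part was the widest, with cluster 3 above it by 3.65 ± 1.03 for Tmem176a and 3.92 ± 0.51 for Tmem176b, in 3 of 3 mice.

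The dendritic-like cells were thus divided by the pair although both parts were rich in MHC class II. Summed over 11 MHC class II genes, the type 2 dendritic cell-like part held 74493 ± 3919 CPM and the Xcr1-led part 67284 ± 2758 CPM (n = 3 control mice). In control mice 1, 2 and 4, Tmem176b was at 601, 711 and 653 CPM in the former and at 26.3, 30.2 and 12.7 CPM in the latter. The groups of values do not overlap. After thinning each cell to 1000 UMIs, 43.7% of the type 2 dendritic cell-like cells and 3.08% of the Xcr1-led cells of control mice had a UMI of Tmem176b, from cells with a median of 7886 and 11136 UMIs before thinning. In cKO mice 8.33% of 48 thinned Xcr1-led cells had a UMI of Tmem176b and 0% of Tmem176a. Free RNA gives UMIs in cells that do not express a gene, and these shares, the lowest found, are given as the level of a cell type low in the pair. They rest on few cells with a UMI.

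The sort also passed lymphoid cells, and the pair was abundant in them. In the part led by Jchain, Mzb1 and Cd79a (B or plasma cell-like), control mice 1, 2 and 4 held 1465, 1504 and 1583 CPM of Tmem176b in 6 to 13 cells, and cKO mice 6, 7 and 8 held 2769, 2011 and 1926 CPM in 5 to 11 cells. In the part led by Cxcr6, Gzmb and Cd3g, the same control mice held 538, 665 and 769 CPM in 16 to 19 cells. With so few cells, these values have no further test.

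Across the 46 sums of 1 mouse and 1 cluster, the genes followed each other closely. On log2(CPM + 1), Pearson's r between Tmem176a and Tmem176b was 0.96, the highest of the 4742 genes compared with Tmem176b. The next were Hvcn1, a proton channel, at 0.80, AW112010 (0.80), Itm2b (0.78), Serpinb6a (0.77), the B cell receptor subunit Cd79b (0.77), Npl (0.77), Serinc3 (0.76), Fundc2 (0.75) and the tetraspanin Cd81 (0.75). Sums of the same mouse share a library, and sums of the same cluster share a cell type, so r is a description over these points. Over all 46 sums, the MHC class II genes did not follow the pair. Their r was 0.06 for H2-Ab1, 0.10 for Cd74 and -0.18 for Ciita, the transactivator of the class. By control means, lymphoid-like cells joined little MHC class II (6960 CPM) to much Tmem176b (1151 CPM), and dendritic-like cells did the opposite (67450 and 237). Both measures were higher in macrophage-like cells (87240 and 1664) than in monocyte-like cells (42504 and 665), whose cKO means were lower again (7706 and 150). No r was computed for macrophage-like and monocyte-like sums alone.

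**Figure D2:**
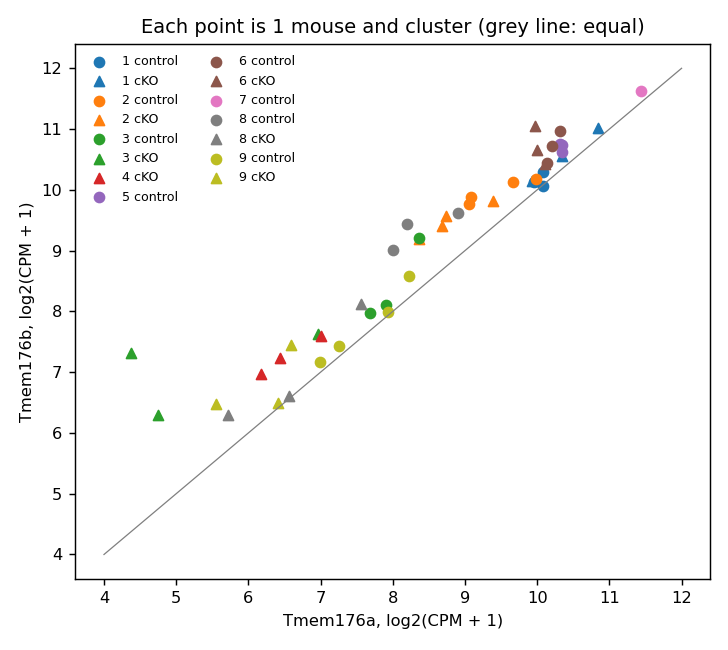
Tmem176b against Tmem176a as log2(CPM + 1), each point 1 mouse and cluster with at least 20 cells, coloured by cluster, circles for control and triangles for cKO mice, the grey line marking equal values. Points run along a single diagonal from about 4 to 12 on the log2 scale, the course behind the r of 0.96.

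The ratio of the genes was not the same in each cluster. The log2 ratio of Tmem176b to Tmem176a UMIs was 0.99 ± 0.26 (SD) in monocyte-like cells of control mice and 0.37 ± 0.08 in macrophage-like cells (n = 3 each), and the ranges, 0.73 to 1.25 and 0.28 to 0.44, do not overlap. In lymphoid-like cells it was 0.13 ± 0.12 in control and 0.20 ± 0.02 in cKO mice. In monocyte-like cells of cKO mice the ratio was 0.40 ± 0.30, between 0.05 and 0.58, below each control value. These cKO ratios rest on few UMIs of Tmem176b and Tmem176a, 31 and 30 in mouse 6, 30 and 20 in mouse 7 and 105 and 71 in mouse 8.

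Within a cluster of 1 mouse the relation between cells was weak at equal depth. After thinning to 1000 UMIs, which left out 178 cells, the mean Spearman correlation of Tmem176a and Tmem176b over 40 sets of cells was 0.24 ± 0.18 (SD), above 0 in 38 of them. Thinned to 500 UMIs the mean was 0.14, above 0 in 30 of 44 sets, and without thinning it was 0.58, over cells of unequal depth. Tmem176a was the gene with the highest mean correlation with Tmem176b among 4473 genes compared. The next were Cd74, the invariant chain of MHC class II (0.16), H2-Ab1 (0.13), H2-Eb1 (0.13), Selenop (0.11), Ssr4 (0.11), Apoe (0.10), Pmvk (0.10), H2-Aa (0.10) and Itgav (0.10). So 4 of the 9 genes after Tmem176a were MHC class II genes, in contrast to the ranking over all 46 sums. Others of the class ranked lower, with Ciita at 20 (0.083), H2-DMb2 at 114 (0.056), H2-DMb1 at 160 (0.051) and H2-DMa at 1343 (0.012). In lymphoid-like cells, 39.6% carried UMIs of both genes where the product of the single shares gave 29.8%, and in monocyte-like cells 8.84% where it gave 5.59%. In macrophage-like cells the values were 50.4% and 50.2%. Lymphoid-like cells mix the Cd3g-led part, at 775 CPM of Tmem176b in pooled control cells, and the B or plasma cell-like part, at 1518 CPM. Their share with both genes thus runs across cell types. The share with both was above the product in 33 of 42 sets.

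Summed over all cells of a mouse, both genes were lower in cKO mice. Tmem176a was at 735, 635, 474 and 567 CPM in control mice 1 to 4 and at 275, 390, 283 and 409 CPM in cKO mice 5 to 8. Each cKO mouse lay below each control mouse, with a log2 fold change of -0.73 ± 0.18 (SE). Tmem176b was at 974, 823, 669 and 806 CPM in control and at 519, 553, 373 and 588 CPM in cKO mice, again without overlap, with a log2 fold change of -0.60 ± 0.16. Of the 11387 genes tested, 1.48% were lower in cKO at an adjusted p under 0.05 by edgeR's quasi-likelihood test, a group that held Tmem176a and not Tmem176b, and 2.99% were higher. Each cKO mouse lay below each control mouse for 8.34% of genes. Since the pair was chosen with this contrast in view, nothing is read from these shares. The call of Tmem176a held in 7 of 14 alternative settings and was lost without doublet calls and without any 1 of control mice 1 and 2 and cKO mice 5 to 8, where its log2 fold change was between -0.83 and -0.61. Tmem176b was called in 4 of 14, among them without control mouse 3 (-0.67). In such sums, fewer cells of a type and less RNA per cell cannot be told apart.

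The mix of clusters moved with the condition. Macrophage-like cells of cluster 5 went from 14.9% ± 9.9 of kept cells in control mice to 3.09% ± 0.70 in cKO mice, dendritic-like cells from 23.3% ± 3.7 to 7.42% ± 1.8, stromal-like cells, the highest in both genes, from 4.32% ± 2.0 to 1.34% ± 0.78, and cluster 4 from 1.52% ± 1.2 to 23.5% ± 13.3 (SD, n = 4), each with an exact two-sided permutation p of 0.029, the smallest that 4 against 4 mice allow, and an adjusted p of 0.064 over 9 clusters, so none passed the correction. Had each cluster kept its pooled control level in each mouse, the measured mix would have given cKO mice 601 ± 26 CPM of Tmem176a and 888 ± 9.8 CPM of Tmem176b, against 629 ± 45 and 845 ± 65 CPM in control mice. The measured means were 339 ± 70 and 508 ± 94 CPM in cKO mice. This reckoning rests on clusters that partly split by condition, and on 30 control cells for cluster 4.

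In monocyte-like cells the difference was wide for both genes. Tmem176b was at 790, 693 and 513 CPM in control mice 1, 2 and 4 and at 96.3, 77.8 and 277 CPM in cKO mice 6, 7 and 8, with a log2 fold change of -2.18 ± 0.34 (SE). Tmem176a was at 477, 292 and 256 CPM against 93.2, 51.9 and 187 CPM, with a log2 fold change of -1.67 ± 0.34. The groups do not overlap for either gene, and cKO mouse 8 was the highest of its group for both. Both members were among the 0.388% of 10580 genes called lower in this cluster, where 0.501% were called higher. The call of Tmem176b held in 16 of 16 alternative settings and that of Tmem176a in 13. The latter was lost when all genes entered the clustering (-1.03, in a cluster that shares 252 of the 552 monocyte-like cells), without control mouse 1 (-1.31) and without cKO mouse 7 (-1.29). After thinning, 42.3% of control and 9.86% of cKO monocyte-like cells had a UMI of Tmem176b, against 74.6% and 34.1% before. The Xcr1-led cells had one in 3.08% of control and 8.33% of cKO cells after thinning. By CPM the cKO monocyte-like cells, at 157 pooled, stood above those cells at 27.7. Monocyte markers were higher in cKO mice, opposite to the pair. Summed over 7 genes that include Ly6c2 and Chil3, they were between 6620 and 8885 CPM in control and between 16062 and 18634 CPM in cKO mice with at least 20 such cells, while 11 macrophage markers were between 993 and 1980 and between 298 and 810 CPM. The part of this shift in the result was not tested.

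Cluster 3, of low depth and with few UMIs of the pair, went the same way. In control mice 1, 2 and 4 it held 21, 20 and 13 UMIs of Tmem176a, and in cKO mice 6, 7 and 8 it held 1, 1 and 5. The log2 fold changes were -2.38 ± 0.64 for Tmem176a and -1.47 ± 0.50 for Tmem176b, and neither was called, where 0.123% of genes were lower and 0.0945% higher. Tmem176a was called in 4 of 16 alternative settings, among them without cKO mouse 8 (-3.64), and Tmem176b in 2 of 16. The macrophage markers of cluster 3 were between 1538 and 1997 CPM in control and between 387 and 964 CPM in cKO mice, and its monocyte markers between 6022 and 7352 and between 8785 and 11338 CPM. The part of these shifts was not tested. In cluster 2 the differences were smaller, -0.67 ± 0.27 and -0.49 ± 0.27. There Tmem176b was at 1114, 1161, 870 and 941 CPM in control and at 678, 584, 903 and 760 CPM in cKO mice, where cKO mouse 7 lay above control mouse 3. Neither gene was called, with 0.113% of genes lower and 0.718% higher. The monocyte markers of cluster 2 were between 1268 and 2641 CPM in control and between 2753 and 4033 CPM in cKO mice, without overlap, and their part was not tested.

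**Figure D3:**
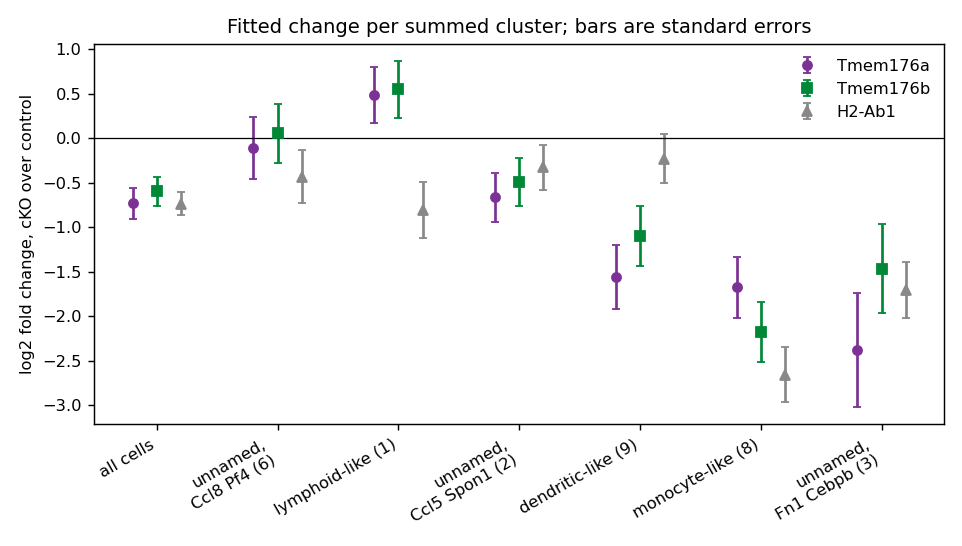
Log2 fold change of cKO over control mice from the edgeR fit for all cells summed and for the 6 clusters that could be fitted, with standard errors, for Tmem176a (circles), Tmem176b (squares) and the MHC class II gene H2-Ab1 (triangles). All 3 genes are low in monocyte-like cells, while in dendritic-like cells the pair lies at -1.56 and -1.10 and H2-Ab1 at -0.23.

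In dendritic-like cells the pair was at lower levels in cKO mice. Tmem176a was at 243, 152, 126 and 299 CPM in control mice 1 to 4 and at 45.9, 83.8 and 95.8 CPM in cKO mice 6 to 8, with a log2 fold change of -1.56 ± 0.36 (SE), and cKO and control mice did not overlap. Tmem176b was at 252, 171, 142 and 382 CPM against 87.7, 89.0 and 174 CPM, with a log2 fold change of -1.10 ± 0.33, and cKO mouse 8 overlapped control mice 2 and 3. Tmem176a and not Tmem176b was among the 0.0189% of genes called lower in the cluster, where 0.208% were higher. The call of Tmem176a held in 10 of 16 settings and was lost with the cluster fitted alone and without control mouse 1, 2 or 4 or cKO mouse 6 or 7, where the log2 fold change was between -1.68 and -1.29. In the same sums H2-Ab1 was at -0.23 ± 0.27 and Cd74 at -0.03 ± 0.24, and 0 of 11 MHC class II genes passed the threshold by edgeR's quasi-likelihood test. Only H2-Oa, a subunit of the peptide-loading modulator, had an unadjusted p under 0.05 (0.00075), at -1.13 ± 0.31, a value close to that of Tmem176b. Markers also moved in this cluster. The 7 dendritic cell markers summed to between 970 and 1344 CPM in control and between 693 and 953 CPM in cKO mice, and the 7 monocyte markers to between 1027 and 1741 and between 1532 and 3041 CPM, and their part in the result was not tested. Both genes were lower in the type 2 dendritic cell-like part, where pooled control cells held 544 CPM of Tmem176a and 639 CPM of Tmem176b and pooled cKO cells 193 and 329 CPM, from 185 and 45 cells. In cKO mice 6, 7 and 8 this part had 11, 15 and 17 cells and 353, 182 and 423 CPM of Tmem176b, each below the 601 CPM of the lowest control mouse with at least 20 cells. Control mouse 3, with 7 cells, was at 434 CPM. In the Xcr1-led part, pooled Tmem176a was at 28.0 CPM (72 UMIs) in control and 13.9 CPM (8 UMIs) in cKO cells. Tmem176b was at 26.1 and 27.7 CPM there. With so few UMIs, a difference in that part cannot be judged. The share of the Xcr1-led cells among dendritic-like cells was 233 of 418 in control and 50 of 95 in cKO mice.

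In clusters 6 and 1 neither gene was called, and clusters 5, 7 and 4 had too few cells of 1 condition for the fit. With sums of at least 10 cells, the macrophage-like cells of cluster 5 had log2 fold changes of -0.59 ± 0.32 (SE) for Tmem176a and -0.72 ± 0.32 for Tmem176b, and cKO mice 6, 7 and 8, with 12, 10 and 14 cells, held 1351, 1259 and 1071 CPM of Tmem176b against 1718, 1702 and 1571 CPM in control mice 1, 2 and 4. Cluster 6, which carries macrophage markers at a like level, had log2 fold changes of -0.11 ± 0.35 and 0.06 ± 0.33 and a share of 8.22% ± 2.7 of cells in control and 9.80% ± 2.5 in cKO mice, with 0.00945% of genes called lower and 0.0756% higher. Lymphoid-like cells were higher by 0.49 ± 0.32 and 0.55 ± 0.32, a difference within the spread of cKO mice (977 to 1835 CPM of Tmem176a), with 0.00945% of genes called lower and 0.104% higher. Stromal-like cells of cKO mice 5 to 8, in 1, 5, 2 and 10 cells, held 1944, 2066, 1629 and 3138 CPM of Tmem176b, within the range of control mice apart from cKO mouse 7. The 30 control cells of cluster 4 held 485 CPM of Tmem176a and 861 CPM of Tmem176b when pooled. Its cKO cells held 95 ± 29 CPM of Tmem176a and 155 ± 34 CPM of Tmem176b (n = 3), near the cKO monocyte-like cells at 111 ± 69 and 150 ± 110 CPM.

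The relation of the pair to MHC class II was also followed between cells within a cluster. The clusters were made without the MHC class II genes, so 1 cluster can hold cells low and high in them. In monocyte-like cells the Spearman correlation of the summed pair with summed MHC class II UMIs, after thinning, was 0.32 ± 0.08 (SD, 6 mice) and between 0.22 and 0.39. Thinned to 500 UMIs it was 0.22 ± 0.13, above 0 in 6 of 6 mice. In cluster 3 it was 0.36 ± 0.08 (3 mice), and at 500 UMIs 0.33 ± 0.15, above 0 in 6 of 6 mice. In cluster 4 it was 0.22 ± 0.06 (3 cKO mice), and at 500 UMIs 0.27 ± 0.04. In cluster 2 it was 0.19 ± 0.19, above 0 in 7 of 8 mice, and at 500 UMIs 0.05 ± 0.25, above 0 in 6 of 8. In lymphoid-like cells it was 0.36 ± 0.16 (6 mice), and at 500 UMIs 0.087 ± 0.19, between -0.17 and 0.40. These cells mix the Cd3g-led part, with 2184 CPM of MHC class II in pooled control cells, and the B or plasma cell-like part, with 10771 CPM, so the value runs across cell types. The correlation was in macrophage-like cells 0.11 ± 0.05 (3 mice) and in cluster 6 it was -0.0014 ± 0.059 (5 mice). At 500 UMIs, a depth that more cells of cluster 6 reach, it was 0.13 ± 0.11 in cluster 6, above 0 in 6 of 6 mice. In macrophage-like cells it was then 0.05 ± 0.14, above 0 in 2 of 3 mice. The value in cluster 6 thus depends on the depth chosen. When monocyte-like cells of each control mouse were cut into 3 equal parts by MHC class II, the share with a Tmem176b UMI was 22.7% ± 14.6, 47.6% ± 1.5 and 57.3% ± 10.1 from the lowest to the highest (n = 3), with 3.1, 36.2 and 83.2 MHC class II UMIs per 1000. The share with a Tmem176a UMI was 10.2% ± 7.0, 18.0% ± 8.2 and 43.5% ± 12.2. In cKO mice the parts held 0.3, 1.8 and 20.7 MHC class II UMIs, and the shares with Tmem176b were 4.6% ± 0.3, 5.9% ± 5.1 and 16.5% ± 5.5. In the type 2 dendritic cell-like part of control mice, Tmem176a stood at 39.1% ± 7.4, 35.7% ± 15.0 and 41.2% ± 4.0. Tmem176b stood at 38.4% ± 28.3, 57.7% ± 15.0 and 49.3% ± 7.9. The correlation of the summed pair with MHC class II was 0.21 ± 0.09 there (3 mice). Thinned to 500 UMIs it was 0.06 ± 0.19, above 0 in 2 of 3 mice.

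The conditions were then set side by side within bins of MHC class II content. Monocyte-like cells with under 5 MHC class II UMIs per 1000 carried Tmem176b in 21.7% ± 14.4 of control cells, between 11.1% and 38.1% over 3 mice, and in 5.16% ± 0.34 of cKO cells, between 4.76% and 5.36%. The ranges do not overlap. Within this bin the mean MHC class II content was 2.08 UMIs per 1000 in control and 1.38 in cKO cells. The part of this difference was not tested. The cKO share lies between the 3.08% of control and the 8.33% of cKO cells of the Xcr1-led part, so it is not told apart from the level of a cell type low in the pair. For Tmem176a the same bin gave 10.4% ± 7.2 and 6.55% ± 4.5, a difference within the spread. With 5 to 19 UMIs, the pooled share with Tmem176b was 39.2% of 51 control and 17.9% of 28 cKO cells, and with 20 to 59 it was 41.8% of 67 and 26.7% of 15 cells. Tmem176a did not go the same way. At 5 to 19 UMIs it was found in 9.80% of control and 14.3% of cKO cells, and at 20 to 59 in 22.4% and 20.0%. In type 2 dendritic cell-like cells with 60 or more UMIs, Tmem176b was found in 48.9% of 131 control and 22.6% of 31 cKO cells. Tmem176a was found there in 37.4% and 9.68%. In cluster 2 with 60 or more, it was found in 56.7% ± 5.6 of control and 53.3% ± 12.3 of cKO cells (n = 4 each), a difference within the spread, and Tmem176a in 41.3% ± 15.2 and 37.5% ± 7.3. At 20 to 59 UMIs, Tmem176a in cluster 2 stood at 43.7% ± 16.8 and 15.9% ± 8.2 while Tmem176b stood at 46.6% ± 9.5 and 47.7% ± 9.2. These bins were drawn after the data were seen.

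**Figure D4:**
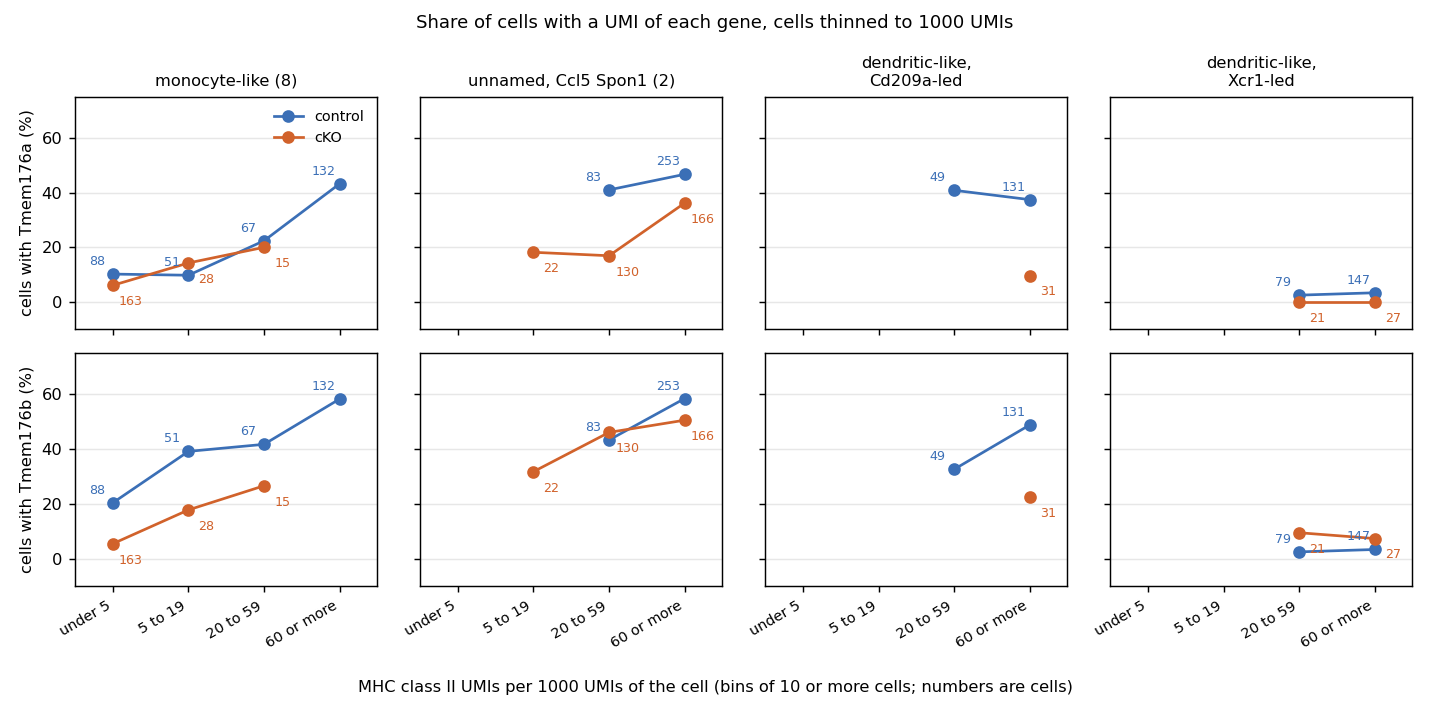
Percent of cells with a UMI of Tmem176a (top) or Tmem176b (bottom) by MHC class II UMIs per 1000, after thinning each cell to 1000 UMIs, pooled over the mice of each condition, for 4 cell groups. Numbers are cells and bins under 10 cells are left out. In monocyte-like cells Tmem176b rises from 20.5% to 58.3% of control cells, the cKO line lies below it in each bin shown, and the Xcr1-led cells stay under 10%. For Tmem176a in monocyte-like cells, the cKO point lies above the control point at 5 to 19 UMIs.

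The genes of the pathways around the pair differed in how they moved. Over all cells, 8 of 11 MHC class II genes were lower in cKO mice by edgeR's quasi-likelihood test, with a median log2 fold change of -0.80 against -0.03 over all genes. Without control mouse 1 or 2 the count was 5 of 11. H2-Ab1 fell from 13747 ± 1769 to 7733 ± 727 CPM (log2 fold change -0.74 ± 0.13 (SE), adjusted p = 0.010), and Ciita from 44.9 ± 6.5 to 22.7 ± 8.0 CPM (-0.98 ± 0.24, adjusted p = 0.039). The others called were H2-Aa, H2-Eb1, H2-DMa, H2-Oa, H2-Ob and Cd74. In monocyte-like cells 8 of 11 were lower with a median of -2.35 against -0.08 over all genes, and H2-Ab1 fell from 8613 ± 1545 to 1406 ± 1304 CPM (edgeR adjusted p = 5.0e-08). In cluster 3, 6 of 11 were lower, with a median of -1.75. In clusters 1, 2 and 6 the number was 0 of 11, with medians of -0.66, -0.44 and -0.43.

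Maturation genes of dendritic cells, which include Ccr7, Cd83 and Cd86, were not called in either direction over all cells, where 9 of 10 were tested and their median was -0.01, nor in any of the 6 clusters fitted. In monocyte-like cells their median was -0.99 against -0.08 over all genes, and Cd83 was at -0.99 ± 0.30 (edgeR adjusted p = 0.13). Among 10 inflammasome genes only Casp4 passed the threshold over all cells, with a log2 fold change of 0.88 ± 0.23 (edgeR adjusted p = 0.047). Nlrp3, the sensor with which Tmem176b has been linked in other work, was at 1.13 ± 0.32 (edgeR adjusted p = 0.069). In each of the 6 clusters fitted, 0 of the 10 were called. Casp4 was at 0.07 ± 0.27 in cluster 2, 0.20 ± 0.30 in monocyte-like cells and 0.67 ± 0.54 in cluster 3. Nlrp3 was at -0.02 ± 0.28, -0.24 ± 0.36 and 0.70 ± 0.50 in the same order. Of 12 interferon-induced genes, 9 were higher over all cells by edgeR's test, where 2.99% of all genes were, with a median of 1.90 against -0.03 over all genes, among them Irf7 (2.97 ± 0.29), Isg15 (2.65 ± 0.33), Oasl2, Ifit3 and Rsad2.

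None of the neighbours of the pair on chromosome 6 passed the threshold. Of the 5 protein-coding genes annotated on each side, 5 of 10 could be tested over all cells. They are Gimap7, Gimap1, Gimap5 and Gimap3, GTPases of lymphocytes that lie 63.0 to 109 kb away, and Gpnmb, a gene of lysosomal membranes in macrophages, 189 kb away. Their log2 fold changes were -0.85 ± 0.49, 0.71 ± 0.38, 0.71 ± 0.48, 0.67 ± 0.42 and 0.83 ± 0.30 (SE) in that order, with edgeR adjusted p between 0.14 and 0.44. On the UMI scale, which does not grow with gene length in a 3′ library, the means of these genes over 8 mice were between 3.63 and 13.6 CPM, against 471 CPM for Tmem176a and 663 CPM for Tmem176b.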

How the data were processed

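Single-cell libraries of 8 mice, 1 well each on the same day, were made with a 3′ kit. The authors aligned reads to mm10 with STAR 2.5.3a and counted UMIs with Cell Ranger, and the deposited values are raw UMI counts per gene and cell, merged without normalization. Wells were matched to mice by the labels. Cells were kept with at least 10 to the power 2.8 UMIs, 10 to the power 2.6 genes and at most 5% mitochondrial UMIs. Clusters came from 9 principal components (scran 1.30.0) and Ward's method, with the pair and the genes of the lists (51 genes) left out. Scrublet (scanpy 1.11.5) called doublets, which stayed in. UMIs were added up within each mouse, over all its cells and over its cells in a cluster where it had at least 20, and fitted with edgeR 4.0.16 (TMM, quasi-likelihood, Benjamini-Hochberg at 0.05), on genes with over 1 CPM in 3 sums and a UMI in 20 cells, which was tested on simulated data. DESeq2 1.42.0 was an alternative. Relations between cells used counts thinned to 1000 UMIs, within these clusters. Shares of few cells carry counting error beside the spread between mice. Members, lists and tests were chosen with earlier results of these data known. The genes named are the members, Slc3a2, list genes past the threshold (some genes and 1 list are not reported here), the 5 neighbours on each side and the 10 genes most like Tmem176b by each of 2 correlations, with Nlrp3 and other genes below the threshold added after their values were seen. Promoters and starts are from RefSeq (GRCm38.p6) and gene spans from GENCODE vM21. Protein sequences were not used here.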

Additional observations from a re-analysis of the deposited data

Results flagged for a closer look

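In cluster 2, the Spearman correlation of the summed pair with MHC class II over cells was -0.20 in control mouse 2 (49 cells), while the other 3 control mice lay between 0.19 and 0.21. The gap to the nearest of the others, relative to the whole range of the group, was above the 95% critical value of Dixon's test. It was the only value set apart among 15 groups of 4 mice examined, and chance alone sets apart about 1 in 20 groups.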

How the results depend on the processing

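Of 277 comparisons of a result with an alternative setting, 243 stayed within the spread, or within 1.5 times for counts, and none turned a called direction. Leaving out lymphoid-like, stromal-like and dendritic-like cells moved the summed log2 fold changes to -1.35 (Tmem176a) and -1.19 (Tmem176b) and the count of genes higher in cKO to 221, and holding each cluster at its control level moved them to -0.065 and 0.072. Genes lower in cKO numbered 314 without the low-count filter and 103 without doublet calls. In cluster 3, Tmem176b was at -0.67 with clustering on all genes, and in cluster 6, Tmem176a was at -0.23 with sums of 10 cells and -0.25 with clustering on all genes. That clustering also raised the log2 ratio of macrophage-like over monocyte-like cells to 3.15 (Tmem176a) and 2.61 (Tmem176b), from 1.97 and 1.34. The mean correlation of the pair was 0.14 with thinning to 500 UMIs, 0.58 without thinning and 0.55 as Pearson's r of log-normalized counts, and that with MHC class II was 0.44 unthinned. Leaving out 1 mouse at a time gave 41 to 290 genes lower and 104 to 422 higher (fewest without control mouse 2 in both, most without control mouse 4), 5 to 9 MHC class II genes lower, and, for Tmem176a and Tmem176b in turn, 0.15 to 0.70 and 0.23 to 0.76 in cluster 1, -3.64 to -2.05 in cluster 3 (Tmem176a, lowest without cKO mouse 8), -0.23 to 0.016 in cluster 6 (Tmem176a) and -2.96 to -1.82 in monocyte-like cells (Tmem176b, lowest without cKO mouse 8). The causes were not tested. Depth limits cluster 3 and cluster 6, with medians of 1453 and 1134 UMIs per cell. No paired analysis was possible because the groups share no replicate numbers.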
